A study of Mus musculus with 2 samples.

Results

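The 9 genes described here are 3 Notch receptors (Notch1, Notch2 and Notch3), the ligand Jag1, the non-canonical ligand Dlk1, the receptor-modifying enzyme Lfng, and the targets Hes1, Hey1 and Nrarp. They were taken by gene symbol from the 27998 genes counted in droplet-based scRNA-seq of mouse alveolar organoids. The rule for taking them uses no measured value, but the list was chosen with earlier results of these data known. All 9 had at least 1 unique molecular identifier (UMI, 1 counted mRNA molecule) in both libraries.

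Alveolar type 2 (AT2) cells of tamoxifen-treated SPCCreERT2;R26RtdTomato mice, in which the Sftpc promoter drives the Cre that switches on the Tomato label, were grown as organoids with cultured lung stromal cells. The strain is given as C57BL/6, most mice of the study were young adults, and how many mice went into each library is not given in the sources used here. Control organoids received PBS and the others IL-1β, and the description of the samples gives 2 weeks of culture, although the sources used here differ on the culture time. Each condition is 1 library, so library and condition cannot be told apart, no p-value can be given, and every 95% interval below is an exact interval for counting error only. The stromal partners were obtained by removing cells with CD31, EpCAM and CD45, ROCK inhibitor was present at the start of all cultures, and both libraries hold stroma beside the epithelium.

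Notch signaling passes between touching cells. A ligand such as Jag1 on one cell engages a Notch receptor on its neighbor, the receptor is cut, and its intracellular part joins the DNA-binding protein RBPJ to switch on targets such as the repressors Hes1 and Hey1 and the feedback inhibitor Nrarp. Lfng adds sugars to the receptor and so changes which ligand it answers to, whereas Dlk1 lacks the domain that activates receptors and is often found to dampen the pathway, also in AT2 cells during repair. In the alveolus, Notch activity has been tied to the passage of AT2 cells toward alveolar type 1 (AT1) fate, and in lung mesenchyme Notch3 is known from pericytes and smooth muscle.

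The 250 bases before the RefSeq start site were searched for 3 short motifs in the 7 members that matched RefSeq promoters by symbol (assembly GRCm38.p6). Hes1 and Hey1 were not among them. The motifs were TGGGAA, the core bound by RBPJ, and CACGTG and CACGCG, sites that Hes and Hey repressors bind, each on both strands. They occurred in 21.6%, 6.02% and 7.62% of all 32851 promoters of this length. Lfng alone among the 7 held TGGGAA, at 108 and, on the other strand, at 135 bases before the start, and the copy at 108 overlaps a CACGTG at 112. Lfng also held CACGCG, on the other strand, at 55. Nrarp held CACGTG at 108, Notch2 held CACGCG at 42, and Jag1 held CACGCG at 171 and, on the other strand, at 249, whereas no match was found in Notch1, Notch3 or Dlk1. Of these windows 3 are shown, since Lfng carries the RBPJ letters, Nrarp was lower in stroma than in epithelium in both libraries, and Dlk1 had the lowest IL-1β over control ratio in stroma. Capitals mark the motif letters as they read on the gene's strand, and a match describes letters, not a bound site. The windows are chr5:140607091-140607340 (plus strand) for Lfng, chr2:25180508-25180757 (plus strand) for Nrarp and chr12:109452573-109452822 (plus strand) for Dlk1.
Lfng: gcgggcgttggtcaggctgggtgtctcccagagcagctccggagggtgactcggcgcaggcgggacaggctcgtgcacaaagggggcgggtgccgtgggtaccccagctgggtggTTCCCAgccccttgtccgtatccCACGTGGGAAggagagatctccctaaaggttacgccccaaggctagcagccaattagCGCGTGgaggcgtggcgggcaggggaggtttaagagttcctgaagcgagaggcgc
Nrarp: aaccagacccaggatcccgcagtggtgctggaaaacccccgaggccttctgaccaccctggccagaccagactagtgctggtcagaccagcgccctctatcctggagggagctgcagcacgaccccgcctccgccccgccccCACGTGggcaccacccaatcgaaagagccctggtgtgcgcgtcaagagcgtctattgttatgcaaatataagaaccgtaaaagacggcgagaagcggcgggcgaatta
Dlk1: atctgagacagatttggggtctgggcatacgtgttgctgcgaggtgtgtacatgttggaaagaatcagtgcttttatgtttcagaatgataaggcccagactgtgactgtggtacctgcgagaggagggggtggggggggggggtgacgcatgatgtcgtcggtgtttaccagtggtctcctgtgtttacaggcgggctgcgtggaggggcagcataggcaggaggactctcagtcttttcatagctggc

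The control library held 33965848 UMIs in 2101 barcodes and the IL-1β library 41220175 UMIs in 3066, and 11 barcode sequences occurred in both. Cells were clustered over both libraries without the 9 members and 44 other Notch pathway genes, and clusters were named from marker genes. AT2-lineage cells (1037 control, 1802 IL-1β) include AT2-like, primed AT2-like (pAT2) and cycling AT2-like (cAT2) clusters. By name, control had 982 AT2-like, 16 pAT2 and 39 cAT2 cells, and IL-1β had 1, 1800 and 1. Transitional cells (14 control, 298 IL-1β) are those resembling damage-associated transient progenitors (DATPs), the state between AT2 and AT1 cells. AT1-like cells numbered 230 and 401, and stromal cells 796 and 475. Nearly all IL-1β AT1-like cells form 1 cluster, whose leading genes include the AT1 markers Akap5 and Hopx and as many DATP markers, AW112010 and Cldn4. The epithelium carried its markers, with levels given throughout as CPM, the UMIs of a gene or list per 1000000 UMIs of all cells of a class. The 11 AT2 markers summed to 128800 CPM in control and 103100 in IL-1β AT2-lineage cells, and 12 AT1 markers to 23960 and 13710 in AT1-like cells. AT1-like cells also held AT2 markers, at 32640 CPM in control and 32790 with IL-1β, above their AT1 sums and against 4727 and 6094 in stroma. Stromal markers summed to 3669 and 2207 in AT1-like and 445 and 456 in AT2-lineage cells. These classes are thus not clean of each other's markers, and the part of this in their ratios was not tested. Nearly every cluster came from 1 library, so each class was made up of different clusters in control and IL-1β organoids. The 14 control transitional cells also carried 793 CPM of 6 contractile stromal markers, against 112 in the IL-1β transitional cells and 696 in control stroma. Their AT2 markers were only 5596, against 68100 in IL-1β transitional cells and 4727 in control stroma. Their 5 mural markers were 149 against 74.4 in control stroma, with Rgs5, Cspg4, Kcnj8 and Abcc9 at 0. Their 7 epithelial markers went the other way, with 9847 against 186 in control stroma. Of the 6 contractile markers, Myh11, Cnn1 and Actg2 were at 0 in the transitional cells of both libraries. The 8 stromal markers summed to 830 CPM in the 14 cells, with Dcn and Pdgfrb at 0, against 9731 in control stroma. When each library was clustered on its own, 120 control and 684 IL-1β cells were named transitional, and 999 and 1446 AT2-lineage.

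A member was counted as higher or lower when 2 levels differed at least 2-fold with the interval of their ratio clear of 1, among genes with at least 50 UMIs over both sides. The same rule over all genes gives the background share printed beside the counts.

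**Figure D1:**
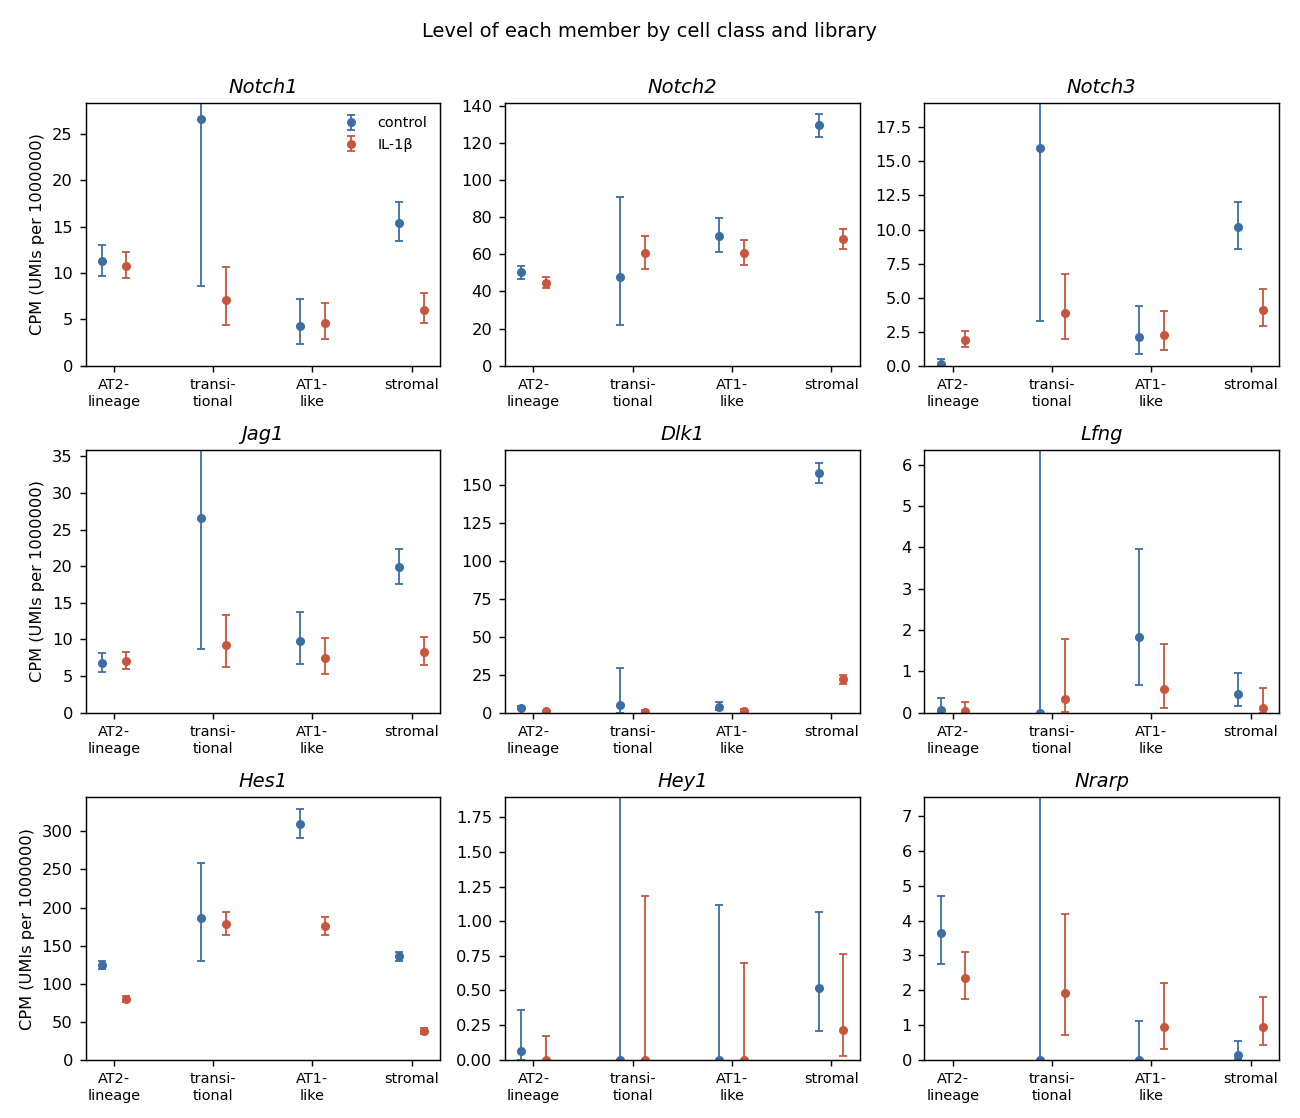
Level of each of the 9 members (y axis, CPM, linear, with its own scale in each panel) in the 4 cell classes (x axis) of the control and IL-1β libraries. Points are levels and bars exact 95% counting intervals, and the bars of the 14 control transitional cells run off 6 of the panels. Stromal levels of Notch1, Notch2, Notch3, Jag1, Dlk1 and Hes1 are all lower in the IL-1β library, and Hes1 is highest in control AT1-like cells at 310 CPM.

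In stromal cells, Dlk1, Hes1 and most of the receptors and ligands were lower in the IL-1β library. Of the 6 members with enough UMIs, 5 were at least 2-fold lower (Notch1, Notch3, Jag1, Dlk1 and Hes1), where 11.8% of all genes were, and 0 were higher, where 4.19% of all genes were. The median log2 ratio of the 6 members was -1.33, against -0.33 for all genes tested and -0.17 for 29 of the 44 other Notch pathway genes. All 5 calls held in 13 of 13 alternative analyses, but these hardly changed which cells were stromal. Stromal cells stayed at 796 and 475 at resolution 0.5 and 2.0, with seed 1, separate clustering and all highly variable genes. These settings are thus a weak check of the stromal calls. Hey1, Nrarp and Lfng had too few stromal UMIs for the rule. Nrarp stood the other way, with 2 control and 9 IL-1β UMIs and a ratio of 6.4 (1.33 to 61.3).

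Notch1, a receptor broadly used in epithelia (chr2:26457903-26516663, minus strand), stood at 15.4 CPM (13.4 to 17.7) in control stroma and at 6.03 (4.57 to 7.81) in IL-1β stroma, a ratio of 0.391 (0.286 to 0.526). Notch1 differed between control stromal clusters, and not all stood above the IL-1β ones, as given below. Its AT2-lineage levels overlapped, at 11.2 (9.64 to 13.0) in control and 10.8 (9.45 to 12.3) in IL-1β organoids. AT1-like cells had the lowest control level, 4.26 (2.33 to 7.14), and 4.56 (2.92 to 6.79) with IL-1β. Notch1 was thus 0.378 times its AT2-lineage level in control AT1-like cells (0.203 to 0.652) and 0.423 times with IL-1β (0.266 to 0.645). IL-1β transitional cells lay between, at 7.06 (4.42 to 10.7). In control organoids the order was transitional, stromal, AT2-lineage and AT1-like, but the 14 transitional cells gave only 5 UMIs and their interval, 8.64 to 62.1, overlapped those of stromal and AT2-lineage cells.

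Notch2 (chr3:98013527-98150361, plus strand) was found in every class. Control stroma had 129 CPM (123 to 136), against 50.2 (46.8 to 53.9) in AT2-lineage cells and 69.9 (61.2 to 79.5) in AT1-like cells. With IL-1β the classes lay closer, with 68.2 (63.1 to 73.7) in stroma, 60.8 (54.4 to 67.9) in AT1-like, 60.6 (52.3 to 69.9) in transitional and 44.7 (41.9 to 47.6) in AT2-lineage cells, and the first 3 of these intervals overlapped. The stromal ratio of IL-1β over control was 0.527 (0.481 to 0.577), just short of the 2-fold rule. In AT1-like cells that ratio was 0.870 (0.733 to 1.04) and in AT2-lineage cells 0.890 (0.809 to 0.979).

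Notch3 (chr17:32120820-32166852, minus strand), a receptor of mural and smooth muscle cells, was found mainly in stroma in control organoids. It stood at 10.2 CPM (8.56 to 12.0) in control stroma from 138 UMIs and at 4.12 (2.93 to 5.64) in IL-1β stroma from 39, a ratio of 0.405 (0.276 to 0.581). In control it was no higher in the stromal cluster led by Ctla2a, Acta2 and Tagln, at 9.01 (5.58 to 13.8). The largest control cluster had 10.4 (8.43 to 12.7) and the one led by Nkd2 13.1 (8.22 to 19.9), with overlapping intervals. Control AT2-lineage cells had 2 UMIs and IL-1β AT2-lineage cells 41, or 0.128 and 1.89 CPM, and these 41 UMIs came from 41 cells with 1 each. The ratio of 14.8 (3.84 to 126) rests on too few UMIs for the 2-fold rule. Control AT1-like cells had 2.13 CPM (0.855 to 4.38) from 7 UMIs, against 2.28 (1.18 to 3.99) with IL-1β. The 14 control transitional cells gave 3 UMIs, or 16.0 (3.29 to 46.6). The IL-1β epithelial classes had overlapping low levels, from 1.89 in AT2-lineage to 3.85 in transitional cells. In AT2-lineage cells this was 45.8% of the stromal level with IL-1β and 1.25% in control, whereas 7 stromal markers there had a median of 2.21% and 2.13% of their stromal level. The source of these UMIs was not tested.

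The ligand Jag1 (chr2:137081456-137116644, minus strand) also stood higher in control stroma than in most control epithelium, with 19.9 CPM (17.6 to 22.4) in stroma, 9.73 (6.65 to 13.7) in AT1-like and 6.77 (5.54 to 8.19) in AT2-lineage cells. The last pair overlapped. In IL-1β organoids the 4 classes spanned 7.05 to 9.31 with overlapping intervals. The stromal ratio was 0.415 (0.319 to 0.536), from 269 control and 78 IL-1β UMIs. In AT2-lineage cells the levels did not separate, with a ratio of 1.04 (0.808 to 1.35).

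Dlk1 (chr12:109452823-109463336, plus strand), an imprinted gene of immature mesenchyme, had the largest difference of the members tested in stroma. Its stromal level was 158 CPM (151 to 165) in control and 22.0 (19.1 to 25.2) with IL-1β, a ratio of 0.139 (0.120 to 0.161). The UMIs were concentrated in few cells. The 10% of control stromal cells with the most Dlk1 held 78.7% of its UMIs, and 1 cell held 160. A UMI was found in 35.9% of control and 12.4% of IL-1β stromal cells, or 20.7% and 5.26% after every cell was thinned to 4000 UMIs. For comparison, AT2-lineage cells showed a UMI in 4.73% and 0.666% of cells (1.54% and 0.222% thinned), at median depths of 14351 and 11527 UMIs against 15723.5 and 14849 in stroma.

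In AT2-lineage cells Dlk1 was 3.39 CPM in control and 0.830 with IL-1β, a ratio of 0.245 (0.135 to 0.425). It was the 1 member of 6 tested that passed the rule in these cells as lower, where 4.8% of all genes did, and 0 were higher, where 7.18% were. These AT2-lineage levels were 2.14% and 3.77% of the stromal levels, near the 2.13% and 2.21% at which stromal markers appeared in the same cells (range 1.27% to 8.71% in control and 1.68% to 5.36% with IL-1β). Levels inside that range are not read as expression. AT1-like cells had 13 control UMIs and 5 IL-1β UMIs.

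**Figure D2:**
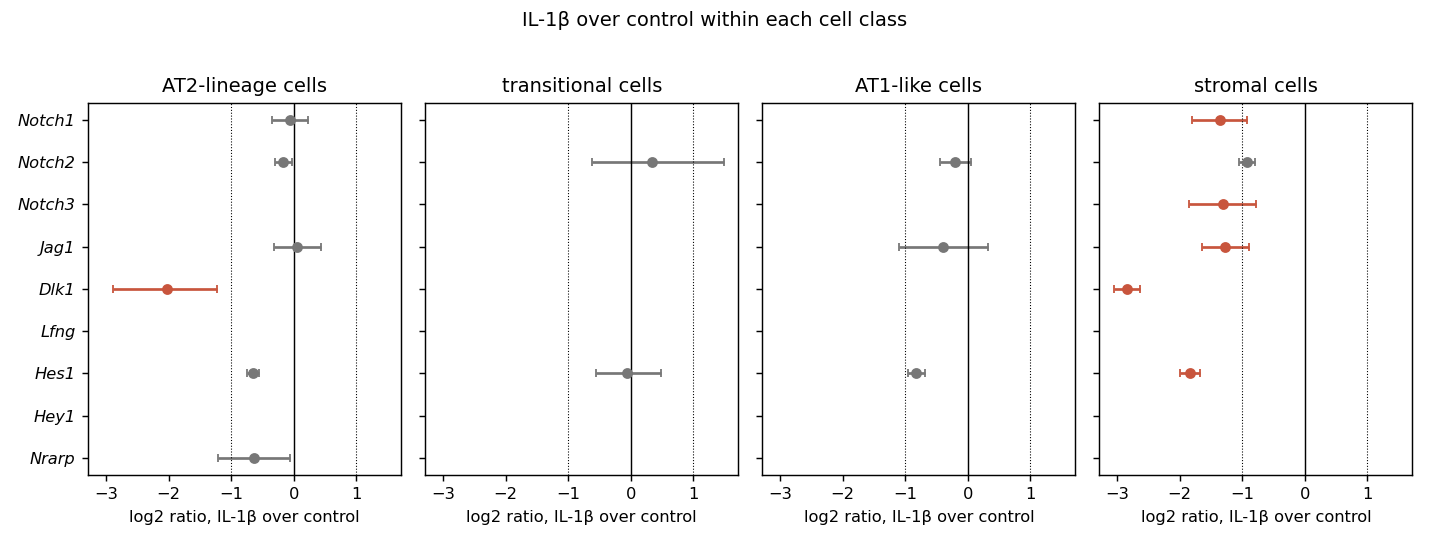
Log2 ratio of the level in the IL-1β library over control (x axis) for the members with at least 50 UMIs (y axis), in 4 cell classes. Points are ratios, bars exact 95% counting intervals, dotted lines 2-fold, and colored points pass the 2-fold rule. In stromal cells 5 members pass as lower, and Dlk1 also does in AT2-lineage cells, where its levels were 2.14% and 3.77% of those in stroma.

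Stromal clusters differed by library, and the stromal ratios compare unlike mixtures. Of 6 clusters, the main control cluster (580 control cells, led by Dio2 and Cxcl14, with Dlk1 itself next) had Dlk1 at 209 CPM, and the IL-1β clusters led by Mmp12 and Mmp10 (275 cells) and by Mt2 and Dcn (177 cells) had 15.1 and 26.9. Hes1 was 145 in that control cluster and 37.6 and 37.7 in those IL-1β clusters. A smaller control cluster of 79 cells, led by Nkd2, had Hes1 at 115 but Dlk1 at only 31.6, close to the IL-1β cells led by Mt2 and Dcn. Its Notch1 level was 9.54 (5.45 to 15.5), which overlapped those of the IL-1β clusters. A cluster of 14 control cells, with the adipocyte genes Cfd and Adipoq among its leading genes, had Notch1 at 71.4 (44.8 to 108) and Hes1 at 3.25, from 22 UMIs and 1 UMI. The 12 control cells that fell in the Mmp12 and Mmp10 cluster had Hes1 at 18.1 (2.19 to 65.2), Dlk1 at 36.1 (9.84 to 92.5) and Notch1 at 45.1 (14.7 to 105) from 2, 4 and 5 UMIs. Low Hes1 was thus also seen in some control stromal cells, from 1 and 2 UMIs. The intervals for Hes1 and Dlk1 in the 12 cells overlapped those of the IL-1β cells of the same cluster. The interval for Notch1 did not, with 6.48 (4.01 to 9.9) in those IL-1β cells. Intervals from so few UMIs are wide, so their overlap shows little.

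The contractile cluster, led by Ctla2a, Acta2 and Tagln, was the only stromal one with over 12 cells of each library (111 control, 19 IL-1β). Within it, Dlk1 was 74.3 CPM in control and 1.90 with IL-1β, from 173 UMIs and 1 UMI, a ratio of 0.0256 (0.000645 to 0.145). Hes1 was 138 and 49.5 (ratio 0.358, 0.230 to 0.534) and Jag1 33.5 and 15.2 (ratio 0.455, 0.190 to 0.941). Thus 3 of the 4 members tested there passed as lower, where 5.68% of all genes did, and 0 as higher, where 4.35% did. Notch2, the other one tested, had a ratio of 0.725 (0.532 to 0.972). Notch1, with 10 control and 4 IL-1β UMIs and a ratio of 1.77 (0.406 to 6.15), and Notch3, with 21 and 4 UMIs and a ratio of 0.844 (0.211 to 2.50), had too few UMIs there for the rule. The control Notch1 level was only 4.29 (2.06 to 7.89) there, so the lower stromal Notch1 with IL-1β was not seen in this cluster. Nrarp was at 0 in the 111 control cells and had 6 UMIs in the 19 IL-1β cells. The contractile markers as a list were 696 CPM in control stroma and 97.7 in IL-1β stroma, and 5 mural markers 74.4 and 69.2. The part of these cell differences in the stromal ratios was not tested.

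**Figure D3:**
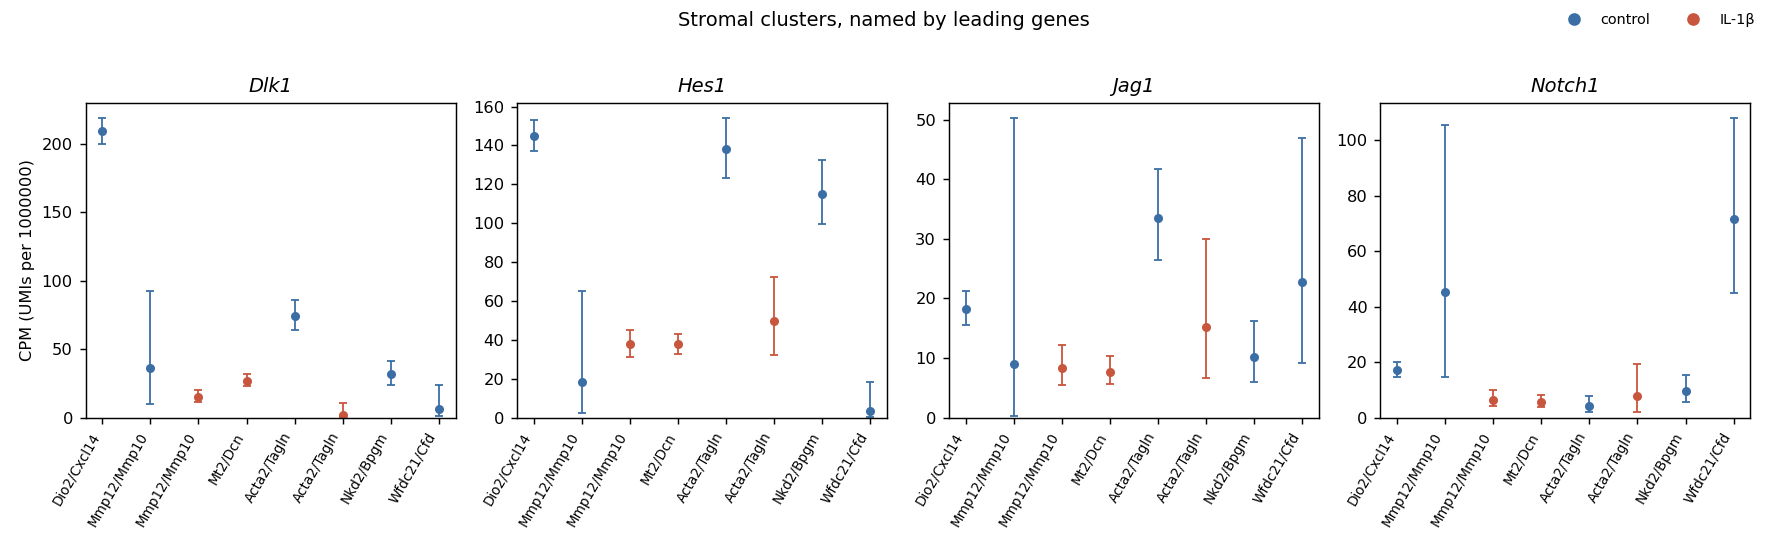
Levels of Dlk1, Hes1, Jag1 and Notch1 (y axes, CPM, linear) in stromal clusters named by 2 of their leading genes (x axis), separately for each library with at least 10 cells. Points are levels and bars exact 95% counting intervals. In the Acta2/Tagln cluster, which holds both libraries, Dlk1 is 74.3 in control and 1.90 in IL-1β cells and Hes1 138 and 49.5.

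Lfng (chr5:140607320-140615545, plus strand), the Fringe enzyme, was barely detected, with 13 UMIs in all control and 8 in all IL-1β barcodes. Of these, 6 fell in control AT1-like cells, or 1.82 CPM (0.669 to 3.97), against 1 in control AT2-lineage cells, or 0.0639 (0.00162 to 0.356). Those intervals did not overlap, and 7 UMIs do not meet the minimum of the 2-fold rule. Control stroma also held 6 UMIs, or 0.443 CPM (0.163 to 0.964), an interval that overlapped the AT1-like one.

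Hes1 (chr16:30064384-30067796, plus strand), the best known Notch-induced repressor, differed between the epithelial classes in both libraries. Control AT1-like cells had 310 CPM (292 to 330) and control AT2-lineage cells 125 (119 to 130), a ratio of 2.49 (2.31 to 2.69). In IL-1β organoids AT1-like cells had 176 (165 to 187) and AT2-lineage cells 79.6 (75.9 to 83.4), a ratio of 2.21 (2.04 to 2.39). Of 6 members tested in each library, Hes1 alone was higher in AT1-like than AT2-lineage cells. The shares of all genes that were higher were 17.1% in control and 11.5% with IL-1β. By these shares, many other genes were higher in AT1-like cells as well. The control call held in 13 of 13 alternatives and the IL-1β call in 11 of 13.

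Notch1 stood the other way in the same classes, as given above. In control organoids 2 of 6 members tested (Notch1 and Nrarp) were lower in AT1-like than AT2-lineage cells, where 7.69% of all genes were. With IL-1β 1 of 6 (Notch1) was lower, where 5.93% of all genes were. The control Notch1 call was lost in 5 of 13 alternatives and the IL-1β call in 0 of 13. The class with the lower Notch1 level thus had the higher Hes1 level, which says nothing of single cells. Notch2, the receptor with the higher level in both classes, went the same way as Hes1 but did not pass the 2-fold rule. Its AT1-like over AT2-lineage ratio was 1.392 (1.197 to 1.614) in control and 1.362 (1.196 to 1.547) with IL-1β.

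IL-1β transitional cells had Hes1 at 179 CPM (164 to 194), overlapping IL-1β AT1-like cells and 2.25 times the AT2-lineage level (2.04 to 2.47). It was the 1 of 6 members tested that was higher in this comparison, where 4.89% of all genes were, and 0 were lower, where 2.18% were. The call was lost in 6 of 13 alternatives, in which more cells were named transitional. With only the random seed changed the level was 118 in 886 cells, so the class itself was not stable. IL-1β AT2-lineage cells then numbered 1243 and not 1802, so that class was not stable either. The pAT2 cluster led by Cxcl5 had been named on a narrow margin, with a mean log2 fold of 0.126 for pAT2 and 0.061 for DATP markers. With each library clustered separately the Hes1 level of IL-1β transitional cells was 130 in 684 cells. With the top 5% of doublet scores removed it was 85.7 in 509 cells, and the log2 ratio over AT2-lineage cells turned to -0.083. The 14 control transitional cells had 186 (130 to 259) from 35 UMIs. In them Jag1 was the 1 of 6 members tested that counted as higher than in AT2-lineage cells, where 15.9% of all genes were, and 0 were lower, where 3.59% were. That call rests on 5 UMIs, 26.6 CPM (8.64 to 62.1), and was lost in 4 of 11 alternatives. Between the libraries, Notch2 and Hes1 were the 2 members tested in transitional cells, and 0 were higher or lower, where 6.35% and 10.7% of all genes were.

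Hes1 stood lower with IL-1β in 3 of the 4 classes, with intervals clear of 1. The ratio of IL-1β over control was 0.638 (0.598 to 0.682) in AT2-lineage, 0.566 (0.517 to 0.620) in AT1-like and 0.281 (0.251 to 0.315) in stromal cells, and only the last passed the 2-fold rule. In transitional cells it was 0.960 (0.682 to 1.39), which rests on the 14 control cells. With each library clustered separately, transitional cells had Hes1 at 232 CPM in 120 control cells and 130 in 684 IL-1β cells, a log2 ratio of -0.83. Over 11 alternatives that log2 ratio ran from -0.83 to 2.00, with 6 on the same side of 0 as the value first given. In AT1-like cells 3 members were tested and 0 were higher or lower, where 4.75% and 3.63% of all genes were. The AT1-like cells of the libraries differed in identity, since the 10 DATP markers were at 2930 CPM with IL-1β and 1658 in control. The part of that difference in the Hes1 ratio was not tested. Among the AT2-lineage clusters, Hes1 spanned 106 to 153 in the 2 main control clusters and 72.9 to 90.5 in the 3 main IL-1β clusters, so that these ranges did not overlap. The former are named AT2-like and the latter pAT2. In the pAT2 cluster led by Cxcl5, 13 control cells had Hes1 at 104 (66.4 to 154) and 609 IL-1β cells at 81.9 (75.4 to 88.8), which overlap. The control cluster at 153 was led by Scgb1a1 and Cbr2, and 5 airway markers summed to 231 CPM in control and 15.5 in IL-1β AT2-lineage cells, and to 378 and 8.37 in AT1-like cells. Of these 5, Foxj1, Krt5 and Muc5b were at 0 in both control classes and Krt5 in both IL-1β classes. The part of these markers in the Hes1 ratios was not tested.

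Nrarp (chr2:25180758-25183339, plus strand), a feedback inhibitor that Notch itself induces, was an epithelial transcript in control organoids. It had 57 UMIs in control AT2-lineage cells, 3.64 CPM (2.76 to 4.72), 0 in AT1-like cells and 2 in stromal cells. At 3 counts, the value put in place of a 0, the AT1-like level would be 0.912 CPM or 0.250 times the AT2-lineage level. The exact 95% upper limits are 1.12 CPM and 0.318 times. With IL-1β the levels were 2.35 (1.75 to 3.09) in AT2-lineage, 1.93 (0.707 to 4.19) in transitional, 0.951 (0.309 to 2.22) in AT1-like and 0.952 (0.435 to 1.81) in stromal cells. The AT2-lineage ratio of IL-1β over control was 0.646 (0.434 to 0.959), which does not pass the rule.

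Cycling cells had the highest Nrarp level among control AT2-lineage cells. The 39 control cAT2-like cells held 18 of its UMIs in 12 cells, 20.1 CPM, against 39 UMIs in the 998 other AT2-lineage cells, 2.64 CPM, a ratio of 7.62 (4.10 to 13.6). Their median depth was 22160 UMIs against 14111, and Hes1 in the same cells had a ratio of 1.02 (0.832 to 1.23). In IL-1β organoids the 1 cell named cAT2-like had 2 Nrarp UMIs. There, 9 cells of an unnamed cluster led by the airway secretory genes Scgb3a1 and Scgb3a2 held 11 Nrarp UMIs in 3 cells, or 49.6 CPM (24.7 to 88.7). The cycling list scored highest in that cluster (mean log2 fold 1.53), but no cycling marker led it, so it stayed unnamed. Of the 4 Hey1 UMIs in the whole IL-1β library, 2 lay in 1 of these 9 cells. Both groups of cells were singled out after their values were seen.

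**Figure D4:**
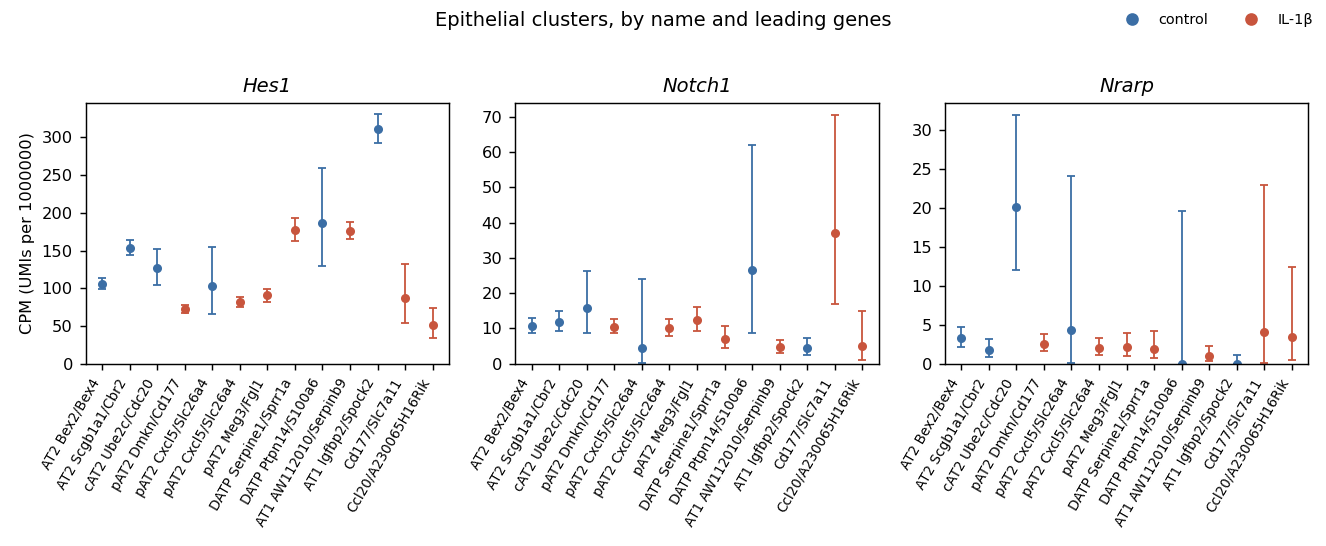
Levels of Hes1, Notch1 and Nrarp (y axes, CPM, linear) in epithelial clusters labelled by their name and 2 leading genes (x axis), for each library with at least 10 cells. Points are levels and bars exact 95% counting intervals. Nrarp is 20.1 in the control cAT2-like cluster, and Hes1 is 311 in the control AT1-like cluster, 176 in the IL-1β one and 177 in the IL-1β DATP-like cluster.

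Hey1 (chr3:8663359-8667256, minus strand), the other repressor, had 8 UMIs in control and 4 in IL-1β organoids, of which 7 and 2 lay in stromal cells. No difference was detectable at this depth. Hes5, Hey2 and Heyl, further targets of the pathway, had 0 UMIs in both libraries.

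Comparing stroma with epithelium within a library places each member. In control organoids 4 of 7 members tested (Notch2, Notch3, Jag1 and Dlk1) were higher in stroma, where 21.3% of all genes were, and 1 (Nrarp) was lower, where 15.7% were. The stromal over epithelial ratios were 2.41 (2.23 to 2.61) for Notch2, 16.2 (9.01 to 32.2) for Notch3, 2.66 (2.16 to 3.28) for Jag1 and 45.1 (35.4 to 58.4) for Dlk1. Hes1 was near even, at 0.864 (0.815 to 0.916). In IL-1β organoids Dlk1 alone of 7 members tested was higher in stroma, with a ratio of 27.6 (18.0 to 44.0), where 14.1% of all genes were. Hes1 and Nrarp were lower, with ratios of 0.358 (0.320 to 0.399) and 0.462 (0.202 to 0.934), where 22.7% were. The receptors and Jag1 had IL-1β ratios from 0.647 to 1.91 that did not pass the rule.

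Few of the 44 other Notch pathway genes passed the rule between the libraries. In stroma 2 of 29 tested were higher and 0 lower, where 4.19% and 11.8% of all genes were. Egfl7, a secreted Notch-binding protein, stood at 8.49 CPM in control and 27.4 in IL-1β stroma, a ratio of 3.23 (2.58 to 4.05). Its level was higher still in AT2-lineage cells, at 21.6 in control and 41.0 with IL-1β. It is best known from endothelium. The 5 endothelial markers summed to 2.66 CPM in control stroma, with Cdh5 and Cldn5 at 0, and to 25.7 in IL-1β stroma, with none at 0. Their part in the stromal ratio was not tested. Nov, a matricellular protein that binds Notch1, stood at 3.32 and 12.5, a ratio of 3.76 (2.64 to 5.42). In AT2-lineage cells 1 of 31 was higher and 0 lower, where 7.18% and 4.8% of all genes were. It was Neurl1a, a ubiquitin ligase that acts on ligands, at 0.767 and 2.86, a ratio of 3.73 (1.99 to 7.60). In AT1-like cells 2 of 29 were higher and 2 lower, where 4.75% and 3.63% of all genes were. Egfl7 was 3.95 in control and 9.32 with IL-1β (ratio 2.36, 1.26 to 4.74), and Dtx4, a ligase acting on receptors, 6.08 and 19.2 (ratio 3.16, 1.94 to 5.39). The ligand Dll1 was 10.3 and 3.04 there (ratio 0.294, 0.152 to 0.548), and Numb, an inhibitor of the receptors, 23.1 and 9.70 (ratio 0.420, 0.289 to 0.607). In transitional cells 0 of 20 passed in either direction, where 6.35% of all genes were higher and 10.7% lower.

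Within control organoids 11 of 29 tested pathway genes were higher in AT1-like than AT2-lineage cells, beside Hes1, and 2 were lower, where 17.1% and 7.69% of all genes were. With IL-1β, 2 of 31 were higher and 1 was lower, where 11.5% and 5.93% of all genes were. The next values were chosen after they were seen. Adam10, the protease that first cuts the receptor, was 163 CPM in control AT1-like cells and 49.1 in control AT2-lineage cells, a ratio of 3.32 (2.96 to 3.71), and 138 and 58.8 with IL-1β, a ratio of 2.34 (2.14 to 2.57). Aph1c, a part of gamma-secretase, which releases the intracellular domain, also passed in both libraries, with ratios of 3.79 (2.42 to 5.89) and 2.09 (1.41 to 3.05). The median log2 ratio of AT1-like over AT2-lineage cells was 0.53 for the pathway genes and 0.35 for all genes in control, and 0.39 and 0.29 with IL-1β.

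Across the 16 clusters of at least 20 cells, the genes with the pattern most like each member were Mndal, Ncam1 and Boc for Dlk1 (Pearson r 0.976, 0.974 and 0.971), Rab8b, Palld and Pgrmc2 for Notch3 (0.952, 0.944 and 0.942) and D17H6S53E, Cnn2 and the AT1 marker Lmo7 for Hes1 (0.942, 0.897 and 0.893). For Notch2 they were 4931406P16Rik, Nrbp1 and Pdcd11 (0.929, 0.912 and 0.901), for Jag1 Lxn, Cct4 and Sgk1 (0.899, 0.849 and 0.846), and for Notch1 N4bp2, Tmtc2 and Gramd3 (0.872, 0.870 and 0.863). These are descriptions over clusters that share 2 libraries and differ in depth. Of these clusters, the one with the highest Notch1 level, 34.6 CPM from 9 UMIs in 41 cells, stayed unnamed because mitochondrial genes led. Its weight in the Notch1 pattern was not tested.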

How the data were processed

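Raw UMI counts per gene and cell were deposited by the authors for 1 control and 1 IL-1β organoid library, made with Cell Ranger on GRCm38, before the study's cell filters, and the submitters' notes also list mm9. Barcodes with over 500 and under 7000 genes and over 2000 UMIs were kept (2083 and 3059). Scrublet, with the score settings of the study, removed 3 cells (0.0583%), so doublets must be assumed to remain. Counts scaled to 10000 per cell and log-transformed were clustered with scanpy 1.11.5 (50 principal components, 15 neighbors, Leiden resolution 1.0, leidenalg 0.10.2), first to set aside stroma and then within epithelium. Epithelial clusters were named by the marker list with the highest mean log2 fold over other epithelial cells (pseudocount 0.1), and stayed unnamed where under 3 markers were raised, mitochondrial genes or markers of another type led, no cycling marker led a cycling name, or depth was low. Lcn1, a pAT2 marker, was not used. Summed UMIs of a class per 1000000 (CPM) carry exact Poisson intervals, and ratios exact conditional binomial intervals (Clopper-Pearson, 95%). In a ratio, a count of 0 was replaced by 3 counts, and the interval kept the count of 0. PCR copies are collapsed by the UMIs, and intervals cover counting error only. Depth was 33965848 and 41220175 UMIs. Scripts were tested on simulated data.

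The members, gene lists and naming rule were chosen with earlier results of these data known. Named beside the 9 members are pathway genes that passed the 2-fold rule between the libraries in any class, and, for members with at least 200 UMIs, the 3 genes (at least 500 UMIs, without mitochondrial, ribosomal protein or predicted genes) with the highest Pearson r of log2 (CPM + 10). Other pathway genes, clusters and cells are named where they carry a count. Positions are those of GENCODE M21, and promoters those of RefSeq. The counts were recomputed under 13 other settings (cell filter, doublets, resolution, algorithm, seed, separate clustering, clustering genes, scaling, UMI minimum, cycling or mixed cells) and 2 added after seeing the data.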

Additional observations from a re-analysis of the deposited data

How the results depend on the processing

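Of the counts of members past 2-fold, those between the libraries in stromal cells kept 5 lower under 13 of 13 other settings. Several of these settings left the number of stromal cells unchanged. With no UMI minimum the IL-1β over control counts became 1 higher in AT2-lineage cells and 1 in stromal cells, and 1 lower in transitional and 1 in AT1-like cells, and the control counts became 2 higher in transitional and 3 in AT1-like over AT2-lineage cells. In control organoids the count higher in transitional over AT2-lineage cells was 0 at resolution 2.0, with Louvain clustering, with separate clustering and without surfactant, mitochondrial and ribosomal protein genes in the total, and 2 with seed 1 and with all highly variable genes, and the count lower was 1 at resolution 2.0 and with separate clustering. In IL-1β organoids the count higher was 0 at resolution 2.0, with Louvain clustering, seed 1, separate clustering, all highly variable genes and the top 5% of doublet scores removed, where Hes1 turned to a log2 ratio of -0.083. Between the libraries, transitional cells had 1 higher at resolution 2.0 and 1 lower with the top 5% removed. In AT1-like over AT2-lineage cells the control count lower was 1 with all barcodes, resolution 2.0, Louvain clustering, seed 1, all highly variable genes and without cAT2-like cells, and the count higher 2 with Louvain clustering. The IL-1β count lower was 2 with all barcodes, resolution 0.5 and the total without surfactant, mitochondrial and ribosomal protein genes, and the count higher was 0 with that total and with the top 5% removed. Stromal over epithelial cells had 0 lower in control without cAT2-like cells, which leaves Nrarp under the UMI minimum, and 2 higher with IL-1β when each cell weighed the same. In the contractile cluster alone, an alternative chosen after seeing the data, 3 members were lower with IL-1β and Notch1 turned to a log2 ratio of 0.83. Over epithelium that cluster gave 2 lower in control, and 2 higher and 1 lower with IL-1β, where Nrarp turned to 2.47, and without the stromal cluster of lowest depth 1 was lower with IL-1β. The cause of the other shifts was not tested. All barcodes and resolution 0.5 left no control transitional cells and so gave no value there. No paired analysis was possible because each condition has 1 library, and no replicate could be left out.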
